A study of Mus musculus with 24 samples.

Results

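RNA polymerase II (Pol II) was mapped by chromatin immunoprecipitation with sequencing (ChIP-seq) in livers of tet-YAP mice and of wild-type mice, and the peak lists of both genotypes were set against each other. The members were the 54617 Pol II peaks of tet-YAP and the 39181 Pol II peaks of wild-type, 93798 of the 665214 regions in the 23 lists used from the series. All animals carried R26-rtTA, a doxycycline-dependent transactivator expressed from the ubiquitous Rosa26 locus. The tet-YAP animals carried in addition a tetracycline-responsive transgene at Col1A1 that encodes YAP S127A, a form that escapes inhibition by the Hippo kinases, and the animals labelled wild-type carried R26-rtTA without it. Per the study's methods, doxycycline was given in the food for 2 days. Tet-Myc livers, with an inducible Myc transgene, and tet-Myc/YAP livers, with both transgenes, were used for comparison. Only 1 library was made per antibody and genotype. No value below therefore has a replicate error, no difference between genotypes was tested, and genotype cannot be told apart from library. The sources used here give neither the age of the animals nor whether livers were pooled, and because R26-rtTA is not restricted to hepatocytes, the cell type that carried a signal is unknown. The tissue label was not checked against marker genes, since no mm9 annotation was used.

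Pol II transcribes messenger RNA genes. It often pauses shortly after it starts at a promoter, so that ChIP signal piles up at the start of the gene, and it spreads over the gene body when elongation is frequent. It is also found at active enhancers, where short unstable RNAs are made. YAP is a coactivator of the Hippo pathway that controls liver size, and it reaches DNA through TEAD transcription factors. The Pol II antibody (N20) was raised against the amino-terminal part of the largest subunit and so detects paused and elongating polymerase alike.

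The libraries differed in depth. Pol II peaks were called on 37.7 M ChIP tags in tet-YAP and on 20.9 M in wild-type, a ratio of 1.80, and controls had matching numbers. The tet-YAP list held 1.39 times as many peaks and covered 1.48 times as many bases, 61.5 Mb against 41.5 Mb. Median peak widths were close, at 635 bp in tet-YAP (quartiles 403 and 1116 bp) and 647 bp in wild-type (420 and 1082 bp), a ratio of 0.981. The ratio turned to 1.29 when both lists were cut to the same number of highest peaks, so the likeness of the medians holds for the full lists alone. The wide end differed more. Peaks of at least 5 kb, the size of a short gene body, numbered 1494 in tet-YAP and 799 in wild-type, and peaks of at least 10 kb numbered 447 and 236 in the same order. The widest tet-YAP peaks were single calls over stretches that the wild-type list divided. That on chromosome 8 from 47567890 to 47629686 was 61797 bp long, where wild-type had 15 separate peaks. A peak of 59957 bp on chromosome 4 (104845030 to 104904986) covered 22 wild-type peaks, and a peak of 58665 bp on chromosome 17 (71548843 to 71607507) covered 8. Such joins were more frequent in tet-YAP: 4748 tet-YAP peaks (16.4% of those with a wild-type partner) lay over several wild-type peaks, and 2604 wild-type peaks (7.87%) over several tet-YAP peaks. The part of depth in the widths was not tested.

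A tet-YAP peak was called kept where it shared at least 1 bp with a wild-type Pol II peak and gained where it did not, and a wild-type peak with no tet-YAP peak was called lost. These words name the overlap of lists and not a tested change. Of the tet-YAP peaks, 25734 were gained, 47.1% (46.7 to 47.5; here and below a Wilson 95% interval, which covers counting only). Of the wild-type peaks, 6079 were lost, 15.5% (15.2 to 15.9). The gained peaks were short and weak. Their median width was 445 bp, against 943 bp for kept tet-YAP peaks, and their median pileup, the number of overlapping extended tags at the summit, was 0.768 per M (1000000) ChIP tags against 1.35. A −log10 q of at least 10 was reached by 40.5% of gained and 83.5% of kept tet-YAP peaks. The lost peaks were likewise short, with a median of 411 bp against 721 bp for kept wild-type peaks, and 19.8% of them reached that q against 65.3%. Counted in bases, 34.6 Mb were shared, 56.3% of the tet-YAP and 83.5% of the wild-type coverage. Of the 26.9 Mb of tet-YAP outside wild-type peaks, 15.01 Mb lay in gained peaks and 11.9 Mb in the overhang of kept ones.

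The share of gained peaks depended on signal height. It was 84.0% among tet-YAP peaks with a pileup under 25 tags, 59.8% from 30 to under 40, 29.1% from 40 to under 60, 6.54% from 60 to under 100, and 0.144% (5 of 3478) at 150 or more. Lost peaks behaved in the same manner, with 40.2% lost among wild-type peaks from 15 to under 20 tags, 9.41% from 25 to under 40 and 0.199% (12 of 6043) at 60 or more. High Pol II peaks were thus present in both lists with few exceptions. The lowest pileup that was listed was 0.530 per M in tet-YAP and 0.717 per M in wild-type, and 35.2% of the gained peaks lay under this lowest wild-type value, below which the wild-type list held no peak. Another 1087 gained peaks (4.22%) reached at least the median of the wild-type list. In lists cut by number or by a threshold, here and below, gained and lost mean no partner in the other list cut likewise. Such a peak can still have a lower partner in the other full list. With both lists cut to the 39181 highest peaks, 34.4% were gained and 21.5% lost. With the 20000 highest, 23.9% were gained and 15.5% lost, with the 10000 highest 15.6% and 12.7%, and with the 5000 highest 17.3% and 16.5%. Among peaks of at least 0.861 per M in either list, the 5th percentile of wild-type, 26.6% were gained and 25.8% lost. The excess of gained over lost peaks narrowed from 31.6 to 0.78 percentage points between the full lists and the 5000 highest. In lists of equal length an excess can come only from peaks that overlap several of the other list. The narrowing is thus set by the cut and is not read as a trait of high peaks.

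**Figure D1:**
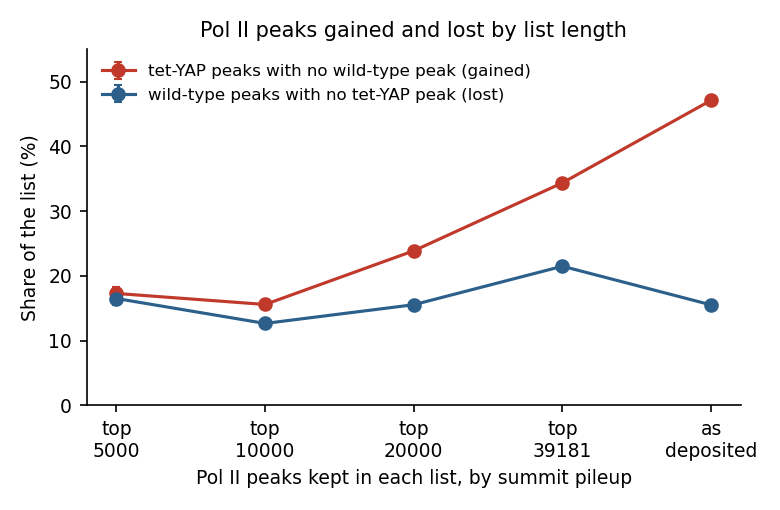
Share (%, vertical axis) of tet-YAP Pol II peaks with no wild-type peak (red, gained) and of wild-type peaks with no tet-YAP peak (blue, lost), for lists cut to the highest summit pileups and as deposited (horizontal axis). In cut lists each peak was matched against the other list cut to the same number. The gap between the curves there comes only from peaks that overlap several of the other list. Bars are Wilson 95% intervals, mostly smaller than the points, and the curves lie at 17.3% and 16.5% for the 5000 highest peaks and at 47.1% and 15.5% for the full lists.

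Positions were assigned from wild-type histone marks: promoter-like on H3K4me3, a mark of promoters, and otherwise distal on H3K27ac (active enhancers and promoters), on H3K4me1 alone (enhancers, active or not) or on none of them. In the full lists gained Pol II peaks were mostly away from promoters. Of the gained peaks 21.1% were promoter-like, against 57.5% of kept tet-YAP peaks, 30.1% against 22.1% were distal with H3K27ac, 11.7% against 7.02% were distal with H3K4me1 alone, and 37.1% against 13.3% had no mark. Of the lost peaks 23.3% were promoter-like, against 53.7% of kept wild-type peaks, and 39.1% were distal with H3K27ac, against 23.7%. Seen from the positions, 24.7% of promoter-like tet-YAP peaks were gained, 54.8% of those distal with H3K27ac, 59.7% with H3K4me1 alone and 71.2% without a mark, to be read against 47.1% of all. The corresponding shares of wild-type peaks that were lost were 7.37%, 23.3%, 26.9% and 21.5%, against 15.5% of all. Gained and lost peaks thus differed most in the unmarked class, 37.1% of gained against 22.4% of lost. At equal list lengths 28.1% of gained and 22.6% of lost peaks were promoter-like. The contrast of gained with kept tet-YAP peaks was smaller at like pileup. Promoter-like shares of gained and kept peaks were 22.6% and 30.1% from 30 to under 40 tags. They were 45.5% and 46.7% from 40 to under 60, and 64.8% and 76.9% from 60 to under 100.

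**Figure D2:**
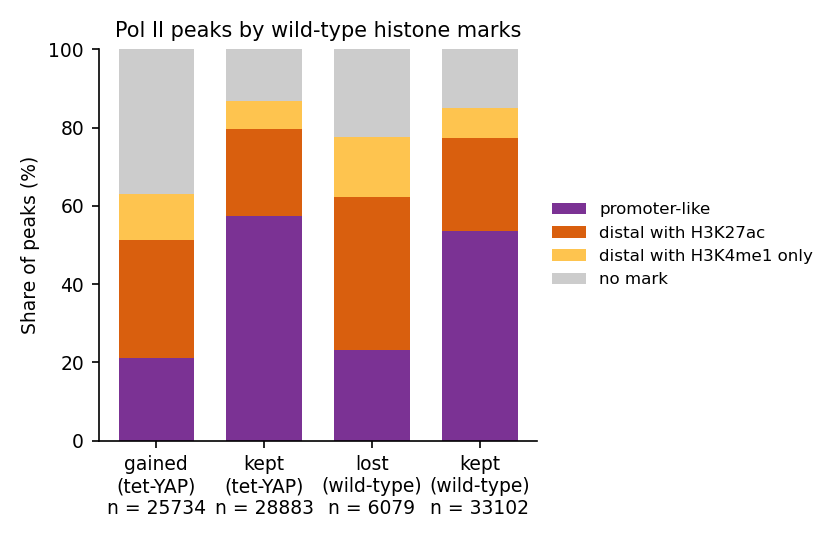
Share of Pol II peaks (%, vertical axis) by wild-type histone marks (colours) for gained and kept peaks of tet-YAP and for lost and kept peaks of wild-type (bars, numbers of peaks below). Promoter-like peaks made up 21.1% of gained and 57.5% of kept tet-YAP peaks, and 23.3% of lost and 53.7% of kept wild-type peaks.

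Most gained peaks lay near Pol II that was already there. Distances to the other list, here and below, were measured from peak summits. The median distance to the nearest wild-type Pol II peak was 3668 bp (quartiles 1262 and 12454 bp). Of the gained peaks 56.9% lay within 5 kb and 83.0% within 20 kb, while 762 were more than 100 kb away. Lost peaks lay closer to tet-YAP Pol II, with a median of 1841 bp and 70.1% within 5 kb. The tet-YAP list held 1.39 times as many peaks as the wild-type list, and the part of this in the distances was not tested. When peaks under 1000 bp apart were joined first, 39.6% of the tet-YAP and 14.0% of the wild-type stretches had no partner. By chromosome, the gained share was 39.5% on X and 51.3% on 12 at its extremes, and the lost share 11.8% on 7 and 21.0% on 3.

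The gained peak with the highest −log10 q lay on chromosome 8 from 96695120 to 96699030 (3911 bp, promoter-like, with TEAD and Myc of tet-YAP). Its pileup was 227 tags in tet-YAP, or 6.02 per M, and the nearest wild-type Pol II peak was 5910 bp from its summit. Tet-Myc/YAP had 5.59 per M there and tet-Myc 0.850, while tet-YAP was high by the choice of the peak. A gap this wide was not found at the others named next. The next were a distal stretch of 8620 bp with H3K27ac on chromosome 3 (94501416 to 94510035, 3.98 per M) and a stretch of 8824 bp without wild-type mark on chromosome 7 (3213808 to 3222631, 3.84 per M). Tet-Myc and tet-Myc/YAP had 2.55 and 2.40 per M at the chromosome 3 stretch. The chromosome 7 stretch carried H3K4me3 and H3K27ac in tet-YAP, and tet-Myc and tet-Myc/YAP had 3.14 and 3.43 per M there. Gained peaks on chromosome 10 (110446594 to 110447174, 3.82 per M, summit 903 bp from a wild-type Pol II peak) and chromosome 11 (16725488 to 16731366, 3.44 per M) completed the 5 strongest. Tet-Myc and tet-Myc/YAP had 3.36 and 4.15 per M at the chromosome 10 peak and 2.25 and 2.31 at the chromosome 11 peak. For comparison, the strongest kept peak, on chromosome 11 from 115884580 to 115886137, had 11.7 per M in tet-YAP and 14.2 in wild-type.

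Among lost peaks the strongest lay on chromosome 7 from 38977919 to 38981796 (3878 bp, promoter-like), with 354 tags or 16.9 per M in wild-type. The nearest tet-YAP peak was 2300 bp from its summit, and tet-Myc and tet-Myc/YAP had 9.33 and 9.67 per M there. Neither H3K4me3 nor H3K27ac of tet-YAP was listed there. The second, on chromosome 19 from 44468141 to 44482209, was a stretch of 14069 bp with 4.83 per M in wild-type. Tet-Myc had 2.63 per M there and tet-Myc/YAP no peak. The others lay on chromosome 14 (9008391 to 9009258, 2.96 per M), chromosome 1 (58200933 to 58205754, 3.35 per M) and chromosome 3 (5860431 to 5861026, 8.08 per M). The last had a fold enrichment over control of only 3.93, no mark, and no Pol II peak in either of the other genotypes.

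Binding of YAP, TEAD and Myc was taken from the tet-YAP lists of 1328, 32486 and 13227 peaks. The YAP peaks were narrow, with a median of 98 bp, against 521 and 530 bp for TEAD and Myc, so overlaps with YAP are not on the same footing as those with the others. YAP lay on 133 gained peaks (0.517%, 0.436 to 0.612), on 397 kept tet-YAP peaks (1.37%, 1.25 to 1.51) and on 8 lost peaks (0.132%, 0.0667 to 0.259). TEAD lay on 12.7% of gained, 43.2% of kept and 14.0% of lost peaks, and Myc on 3.77%, 30.8% and 3.45%. None of the 3 factors lay on 86.3% of gained, 51.3% of kept and 85.1% of lost peaks. Of the 530 tet-YAP Pol II peaks with YAP, 25.1% were gained, under the 47.1% of all tet-YAP peaks. Of the 371 wild-type Pol II peaks with YAP, 2.16% were lost, under the 15.5% of all.

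Since factors sit at high Pol II peaks and gained peaks are low, gained and kept peaks were also compared at like pileup. From 40 to under 60 tags YAP lay on 1.50% of gained (1.11 to 2.04, 40 of 2659) and 0.974% of kept peaks (0.762 to 1.24, 63 of 6471). From 60 to under 100 tags it lay on 3.92% (2.39 to 6.36, 15 of 383) and 1.55% (1.26 to 1.92, 85 of 5475), intervals that did not overlap. Below 60 tags the intervals of gained and kept peaks overlapped in every bin, and at 100 or more tags gained peaks were too few to compare, with YAP on 1 of 30 and on 0 of 5. TEAD and Myc ran the other way in these bins: from 60 to under 100 tags, TEAD lay on 52.0% of gained and 55.9% of kept peaks and Myc on 21.1% and 39.8%. Among the 10000 highest peaks of each list YAP lay on 3.59% of gained (2.78 to 4.64) and 2.57% of kept peaks (2.25 to 2.93), among the 5000 highest on 4.75% (3.52 to 6.37) and 3.31% (2.81 to 3.90), and among the 20000 highest on 1.93% (1.57 to 2.36) and 2.08% (1.87 to 2.32). Gained peaks of these cut lists had no partner in the cut wild-type list, and many can have a lower one in the full list. The intervals of gained and kept peaks overlapped at each of these lengths, so that the lower share of gained peaks in the full lists was not found there, and a higher share could not be told from counting error. On lost peaks YAP lay at 0.553% (0.268 to 1.14) among the 10000 highest and 1.58% (0.923 to 2.68) among the 5000 highest.

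**Figure D3:**
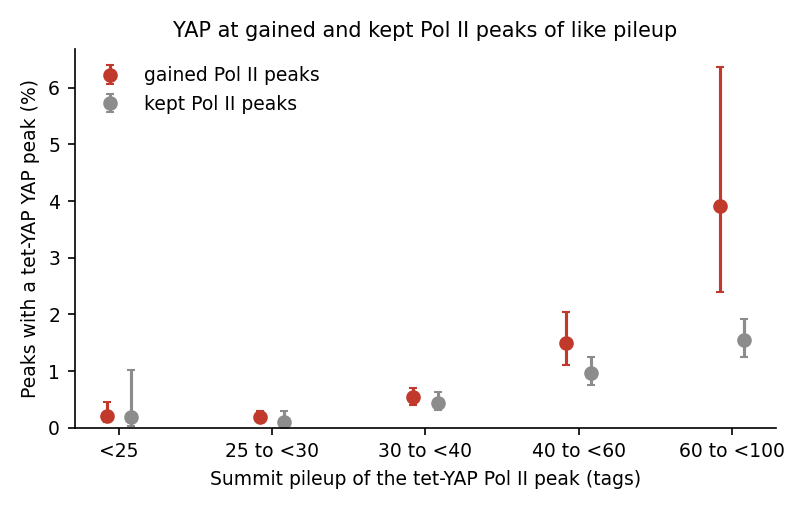
Share of tet-YAP Pol II peaks with a tet-YAP YAP peak (%, vertical axis) in 5 bins of summit pileup (tags, horizontal axis) for gained (red) and kept (grey) peaks, with Wilson 95% intervals. From 60 to under 100 tags the shares were 3.92% for gained and 1.55% for kept peaks.

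Of the gained peaks with YAP, 66 were promoter-like, 62 distal and 5 without a mark. The strongest lay on chromosome 8 from 35103184 to 35104304, promoter-like, with 117 tags (3.10 per M). A YAP peak of fold enrichment 7.50 and a TEAD peak of 36.3 lay on it. Tet-Myc/YAP had 3.34 per M there and tet-Myc 1.64. A distal gained peak on chromosome 8 from 32631489 to 32632058 (2.41 per M) lay 248145 bp from the nearest wild-type Pol II peak, on wild-type H3K27ac, with YAP and TEAD of fold enrichment 15.9 and 53.0. Here tet-Myc/YAP had 3.67 per M and tet-Myc 1.25. On chromosome 14 from 55191298 to 55192761 (2.31 per M in tet-YAP) tet-Myc/YAP had 6.07 per M, and tet-Myc, as wild-type, had no peak. The peak on chromosome 4 from 141125743 to 141126544 (2.33 per M) was listed in neither tet-Myc nor tet-Myc/YAP, and a neighbouring gained peak without YAP, from 141126760 to 141127584 (2.99 per M), shared this pattern. On chromosome 3 from 27837560 to 27838226 (2.23 per M) all 3 factors were present, and tet-Myc and tet-Myc/YAP had 1.72 and 1.70 per M. In 3 of these 5 positions tet-Myc/YAP had more than tet-Myc.

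Where 1 tet-YAP peak met 1 wild-type peak and no other, their heights could be set side by side. There were 19922 such pairs. Pol II height was similar in most: the median log2 ratio of tet-YAP over wild-type pileup per M tags was −0.13, with quartiles of −0.38 and 0.13. At least a 2-fold higher value was found in 149 pairs (0.748%) and at least a 2-fold lower value in 318 (1.6%). The fragment size that was used to extend tags was 291 bp in tet-YAP and 321 bp in wild-type, a log2 ratio of −0.14, and a smaller fragment size lowers pileup. With pileup divided by it as well, the median was 0.01, so the sign of the overall shift rested on the scaling, and only differences between groups of pairs are read here. Promoter-like pairs had a median of −0.06, pairs distal with H3K27ac −0.27, distal with H3K4me1 alone −0.29 and without a mark −0.22. Promoter-like pairs were higher in wild-type (median 2.15 per M) than pairs distal with H3K27ac (1.15 per M), so the classes were also compared at like wild-type height. The median of distal pairs, with H3K27ac or H3K4me1, and of promoter-like pairs was −0.21 and −0.02 from 15 to under 25 tags, −0.41 and −0.05 from 25 to under 40, −0.40 and 0.01 from 40 to under 60, −0.18 and −0.05 from 60 to under 100 (60 distal pairs), and −0.26 and −0.18 at 100 or more (22 distal pairs). Distal pairs thus had the lower median in each bin. The lists also had unequal lowest values, and the part of this in the ratios was not tested. Matched tet-YAP peaks were 1.10 times as wide at the median, and 64.8% were wider than their partner.

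The 292 pairs with YAP had a median log2 ratio of 0.08, against −0.13 for the 19630 without, a gap of 0.21 that the scaling leaves as it is. By pileup per M tags tet-YAP was the higher in 55.5% of pairs with YAP and in 36.7% of those without. Both shares depend on the scaling, since the medians were 0.22 and 0.01 per M tags and per bp of fragment size. At promoter-like positions the medians were 0.08 with YAP (256 pairs), −0.06 with TEAD and no YAP (8378) and −0.07 with neither (4363). At distal positions they were −0.02 (35 pairs), −0.17 (1112) and −0.31 (3565). YAP was assigned by overlap with the tet-YAP peak of a pair, and a wider peak has more room for a YAP peak. The median width ratio of tet-YAP over wild-type was 1.60 with YAP and 1.37 in all pairs from 15 to under 25 wild-type tags. From 25 to under 40 it was 1.40 and 1.13, and at 100 or more 1.02 in both. The part of this in the log2 ratios was not tested. The pairs with YAP lay above all pairs of the same wild-type height in each of 5 bins. The medians were 0.15 against −0.15 from 15 to under 25 tags, 0.20 against −0.19 from 25 to under 40, and 0.15 against −0.02 from 40 to under 60. From 60 to under 100 they were 0.05 against −0.05, and at 100 or more −0.11 against −0.19. Most pairs with YAP were promoter-like. All promoter-like pairs had medians of −0.02, −0.05, 0.01, −0.05 and −0.18 in the same bins. The pairs with YAP, of all positions, lay above these too. In the lower bins they lay less far above promoter-like pairs than above all pairs. The gap between pairs with and without YAP was small beside the spread of single pairs, whose quartiles with YAP were −0.17 and 0.34. At least a 2-fold higher value was reached by 5 of the 292 pairs (1.71%, against 0.748% of all).

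**Figure D4:**
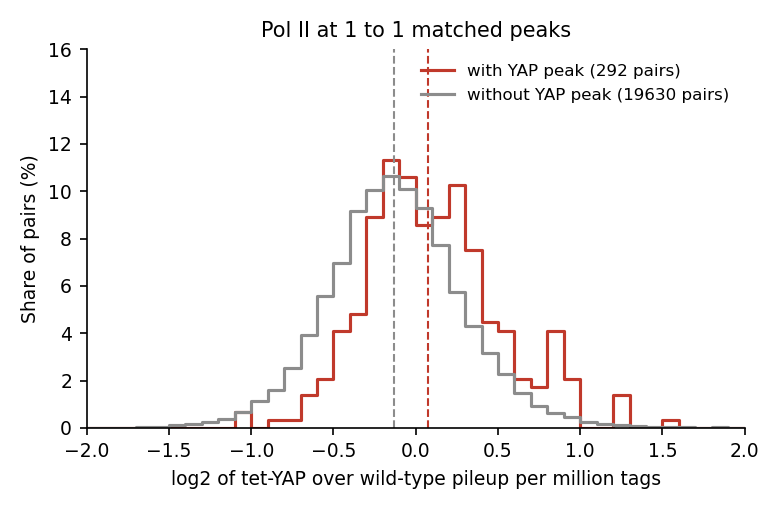
Distribution of the log2 ratio of tet-YAP over wild-type Pol II pileup per M ChIP tags (horizontal axis) over 1 to 1 matched peaks, as a share of pairs per bin (%, vertical axis), for 292 pairs with a tet-YAP YAP peak (red) and 19630 without (grey). Dashed lines mark the medians of 0.08 and −0.13, and the distributions overlap over most of their width.

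Matched pairs were ranked among those whose wild-type pileup was at least the median of the list, and the 3 highest ratios of these were at promoter-like positions. The highest was on chromosome 1 from 51565361 to 51566500, with 185 tags in tet-YAP (4.90 per M) and 29 in wild-type (1.39), a log2 ratio of 1.82, on TEAD without YAP. Tet-Myc and tet-Myc/YAP had 2.73 and 4.91 per M there. On chromosome 8 from 42300075 to 42300783 the ratio was 1.72 (184 tags in tet-YAP and 31 in wild-type), with 7.43 and 7.09 per M in tet-Myc and tet-Myc/YAP. On chromosome 8 from 95860643 to 95861575 it was 1.64, with 2.49 and 1.46 per M in tet-Myc and tet-Myc/YAP. The 3 lowest ratios of these were away from promoters. They were −1.97 on chromosome 1 (58261482 to 58261981, 24 tags in tet-YAP and 52 in wild-type), −1.91 on the same chromosome (132973796 to 132974086) and −1.85 on chromosome 3 (118474404 to 118474718). No YAP peak lay on any of these 6.

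The question could be turned round by asking which binding sites of tet-YAP had Pol II. Of the 1328 YAP peaks, 45.4% overlapped a Pol II peak of tet-YAP and 31.6% one of wild-type. Pol II was present in tet-YAP alone at 201 of them (15.1%) and in wild-type alone at 17 (1.28%). Of the 31458 TEAD peaks without YAP, 10.6% had Pol II in tet-YAP alone and 2.63% in wild-type alone, and of the 12945 Myc peaks without YAP 8.15% and 1.59%. To give each factor the same room, Pol II was also looked for within 250 bp of each summit. At promoter-like summits, Pol II was in tet-YAP alone at 16.9% of YAP (14.1 to 20.05), 10.8% of TEAD without YAP (10.4 to 11.3) and 6.01% of Myc without YAP, and in wild-type alone at 1.82%, 2.67% and 1.05%. At distal summits the shares in tet-YAP alone were 19.1% for YAP (15.6 to 23.2), 13.2% for TEAD (12.6 to 13.9) and 17.1% for Myc, so the interval for YAP lay above that for TEAD but held the value for Myc. In wild-type alone they were 1.94%, 3.50% and 4.03%. With Pol II lists of equal length the promoter-like shares in tet-YAP alone were 14.9% for YAP, 9.12% for TEAD and 5.31% for Myc.

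These shares depend on how many sites were still free of Pol II in wild-type, which was 34.9% of promoter-like YAP summits and 10.3% of promoter-like Myc summits without YAP. Among promoter-like summits with no wild-type Pol II, tet-YAP had Pol II at 48.3% for YAP (41.7 to 55.1, 102 of 211), 38.4% for TEAD without YAP (37.0 to 39.8) and 58.6% for Myc without YAP (55.6 to 61.5). Read this way, the share was higher at YAP than at TEAD sites and highest at Myc sites. Among distal summits with no wild-type Pol II the shares were 23.0% (18.9 to 27.8), 16.4% (15.6 to 17.2) and 37.2% (34.4 to 40.1) in the same order. The share of all YAP summits with wild-type Pol II that had none in tet-YAP was 4.08% (2.63 to 6.28), against 5.88% (5.51 to 6.28) at TEAD and 1.96% (1.71 to 2.24) at Myc summits.

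**Figure D5:**
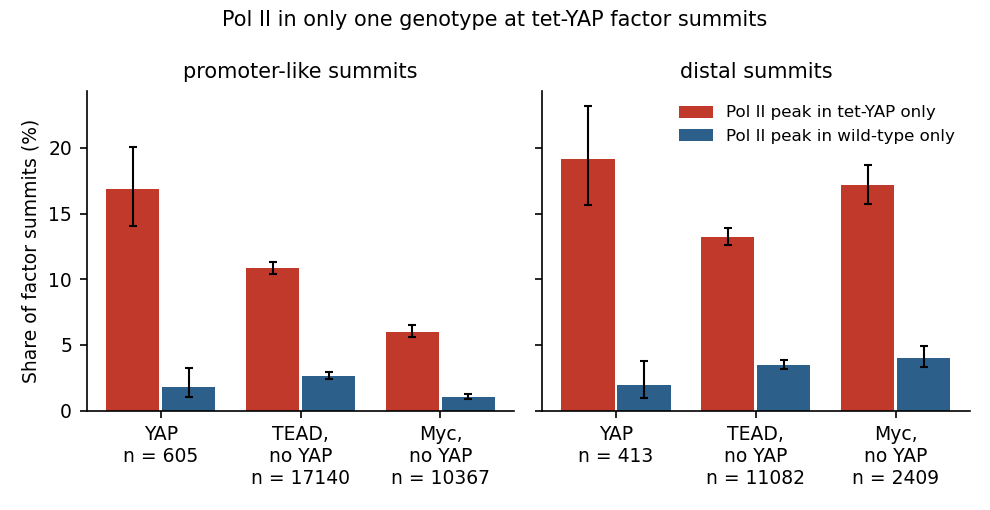
Share of factor summits of tet-YAP (%, vertical axis) with a Pol II peak within 250 bp in tet-YAP but not wild-type (red) and in wild-type but not tet-YAP (blue), at promoter-like and distal summits of YAP, of TEAD without YAP and of Myc without YAP, with Wilson 95% intervals. At promoter-like YAP summits the shares were 16.9% and 1.82%, and at distal ones 19.1% and 1.94%.

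Whole histone mark regions were followed in the same way. Of the 18852 wild-type H3K4me3 regions, 62.0% had Pol II in both genotypes, 1713 (9.09%) in tet-YAP alone, 355 (1.88%) in wild-type alone and 27.01% in neither. The excess in tet-YAP was smaller in shorter lists. Pol II was in tet-YAP alone and in wild-type alone at 7.70% and 2.61% of the regions with lists of equal length. These shares were 4.80% and 3.12% with the 10000 highest peaks, and 3.81% and 3.52% with the 5000 highest. Lists cut to the same number of peaks can reach only similar numbers of regions where most peaks are promoter-like, so this is partly set by the cut. In the full lists the share in tet-YAP alone was 9.94% (7.64 to 12.8) for the 513 regions with YAP, 7.41% for those with TEAD and no YAP, and 11.7% for those with neither. These groups differed in how many regions were free of Pol II in wild-type. Among free H3K4me3 regions, tet-YAP had Pol II at 53.7% of those with YAP (43.7 to 63.4, 51 of 95), at 40.1% of those with TEAD and no YAP (37.98 to 42.2, 829 of 2069) and at 17.95% of those with neither (16.9 to 19.1, 833 of 4640). With lists of equal length the shares were 47.4% (37.6 to 57.3), 33.9% (31.9 to 36.0) and 15.2% (14.2 to 16.3). Of the 5907 wild-type H3K27ac regions without H3K4me3, 12.3% had Pol II in tet-YAP alone and 3.34% in wild-type alone. With YAP (159 regions) these were 21.4% (15.7 to 28.4) and 3.15%, and with TEAD and no YAP 15.6% (14.4 to 16.9) and 3.39%. Among those free of wild-type Pol II, the share with Pol II in tet-YAP was 27.2% with YAP (20.2 to 35.6, 34 of 125), 19.9% with TEAD and no YAP (18.4 to 21.5) and 8.47% with neither (7.36 to 9.74), so here the intervals with YAP and with TEAD overlapped. The free H3K27ac regions with YAP were also wider, with a median of 11361 bp against 7858 bp with TEAD and no YAP, and the part of width in the shares was not tested. Regions of H3K27ac found in tet-YAP alone had Pol II more often in tet-YAP, whereas regions found in wild-type alone had it about equally often in both. The 3075 H3K27ac regions of tet-YAP that met no wild-type region had Pol II in tet-YAP alone at 13.6% and in wild-type alone at 1.07%, whereas the 1397 wild-type regions that met no tet-YAP region had it at 3.79% and 3.36%. The 13.6% was near the 12.3% of wild-type H3K27ac regions without H3K4me3. The part of the longer tet-YAP Pol II list in these shares was not tested.

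The other Pol II lists showed whether gained positions recurred. These were deeper, with 74914 peaks on 50.6 M tags in tet-Myc and 64678 on 45.8 M in tet-Myc/YAP. Of the gained peaks, tet-Myc held 69.7%, tet-Myc/YAP held 61.4% and neither held 20.8%, against 94.8%, 90.9% and 2.97% of kept tet-YAP peaks. Presence of a gained peak in tet-Myc, which lacks the YAP transgene, was thus the rule. Gained peaks with YAP differed in this: tet-Myc/YAP held 82.7% of them (75.4 to 88.2, 110 of 133), tet-Myc held 63.9% (55.5 to 71.6), and 24.8% (18.2 to 32.8) were in the double transgenic list but not in tet-Myc. Of gained peaks without YAP the 3 shares were 61.3%, 69.8% and 9.42%. Lost peaks were found in tet-Myc at 69.3% and in tet-Myc/YAP at 47.3%, and in tet-Myc but not tet-Myc/YAP at 27.5%, against 5.80% of kept wild-type peaks. With the tet-Myc list cut to the length of the tet-Myc/YAP list, 65.5% of lost peaks were in tet-Myc. Lost Pol II peaks were thus absent more often from the tet-Myc/YAP list, whose genotype shares the YAP transgene. The libraries with that transgene also had the smaller fragment sizes. These were 291 bp in tet-YAP and 288 bp in tet-Myc/YAP, against 321 bp in wild-type and 307 bp in tet-Myc. The part of this, here and in the windows below, was not tested. The strongest gained peaks in neither other list were promoter-like and lay on chromosome 6 (85781483 to 85782261) and chromosome 19 (17385554 to 17386178), with 3.55 per M each, both on TEAD without YAP.

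Gained and lost peaks were also counted in windows of the genome. Of 8689 windows of 100 kb with Pol II in either list, 6012 (69.2%) held gained and 2470 (28.4%) lost peaks, and 212 had at least 10 kb in gained peaks against 31 in lost peaks. The window with most gained bases lay on chromosome 17 from 28500001 to 28600000, with 38 Pol II peaks over 51744 bp in tet-YAP and 1 peak of 334 bp in wild-type. It held 10 TEAD peaks and 3 Myc peaks but no YAP peak, and tet-Myc and tet-Myc/YAP had Pol II over 24414 and 12990 bp. Adjoining windows on chromosome 8 followed, from 46700001 to 46900000. From 46800001 on tet-YAP had 67 peaks over 57475 bp and wild-type 6 over 2207 bp, and tet-Myc/YAP covered 99431 bp and tet-Myc 29113 bp. From 46700001 on tet-YAP had 57 peaks over 57583 bp and wild-type 4 over 3257 bp, with 86685 bp in tet-Myc/YAP, 22442 bp in tet-Myc, and 1 YAP peak. Over this stretch tet-Myc/YAP thus covered more bases than tet-Myc, whereas in the chromosome 17 window it covered fewer. Tet-YAP was above wild-type in all of them by the choice of windows.

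The windows with most lost bases ran the other way. Like those above they were chosen on tet-YAP and wild-type values and not on those of the other genotypes. On chromosome 1 from 58200001 to 58300000 tet-YAP had 1 peak of 500 bp and wild-type 29 peaks over 49167 bp. Tet-Myc/YAP covered 8420 bp and tet-Myc 63084 bp. On chromosome 19 from 39300001 to 39400000 tet-YAP had 1 peak of 299 bp and wild-type 10 over 36959 bp, with 402 bp in tet-Myc/YAP and 28412 bp in tet-Myc. On chromosome 9 from 86500001 to 86600000 tet-YAP had 1 peak of 511 bp and wild-type 25 over 34352 bp, with 9668 bp in tet-Myc/YAP and 61827 bp in tet-Myc. In all 3 windows, chosen because tet-YAP was below wild-type, tet-Myc/YAP covered fewer bases than tet-Myc. None of the 3 held a YAP peak of tet-YAP.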

How the data were processed

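The submitters' processing notes name the mm9 build, BWA 0.6.2 for alignment and MACS2 2.0.9 for peaks. Each narrow list was called, per the file headers, on its own library with a p cutoff of 1.00e-05, tags of 51 bp, at most 2 duplicates per position and the larger of ChIP and control scaled to the smaller. For each peak the deposited narrow lists give values that the authors computed: a pileup signal, a fold enrichment (a ratio to control), −log10 q and −log10 p. Histone mark regions were deposited with a score, which was not used, and the sources used here do not give their depth.

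Overlaps were computed with numpy 2.4.6 and pandas 2.3.3 (Python 3.11.15), tested on simulated intervals and checked against bedtools 2.31.1 (28883 kept tet-YAP and 33102 kept wild-type peaks in both). Wilson 95% intervals came from scipy 1.17.1 and figures from matplotlib 3.10.9. They cover counting only, and neighbouring peaks are not independent. Groups came from sample titles, with 1 library each, so no p-value was made. Pileup was divided by M ChIP tags (M, 1000000). A floor at the 5th percentile of wild-type pileup per M (0.861) was an alternative, as were stricter q, equal list lengths, summit overlap, overlap of 50% of a peak and joining of peaks.

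Regions named were those with the highest −log10 q of each class (ties by fold enrichment, then position), the widest tet-YAP peaks, the most extreme matched pairs and the 100 kb windows with most gained or lost bases, leaving out chromosomes 18, Y and M and unplaced contigs. The members, lists and position classes were chosen with earlier results of these data known. The 501 bp summit windows, the bins of pileup, the regions free of wild-type Pol II, the fragment scaling and YAP shares in shorter lists were chosen after seeing the data. Regions are given by mm9 position (counted from 1) since the available gene table (GRCm38) had other coordinates. The input sample was not analysed here.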

Additional observations from a re-analysis of the deposited data

How the results depend on the processing

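In order of gained and lost shares, peaks that passed −log10 q 10 gave 45.1% and 9.999%, and the others were 34.4% and 21.5% in lists of equal length by pileup, 34.9% and 21.9% in lists of equal length by −log10 q, 26.6% and 25.8% above the depth-scaled pileup floor, 53.8% and 21.3% with the summit inside, 56.9% and 21.3% with overlap of 50% of the peak, and 39.6% and 14.0% with peaks under 1000 bp apart joined. For the highest 5000, 10000 and 20000 peaks the gained shares were 17.3%, 15.6% and 23.9%, and the lost shares of the first 2 were 16.5% and 12.7%. The gained share was the larger in every setting, by 0.77 points above the floor. In lists of equal length such a difference can come only from peaks that overlap several of the other list. The ratio of median widths was 0.968 at the stricter q. It became 1.29 at equal length and 1.46 above the floor, the opposite side of 1.

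Promoter-like shares of gained and kept peaks were 31.6% and 73.0% at the stricter q, 28.1% and 61.9% at equal length, 33.9% and 66.0% above the floor, and 20.3% and 60.8% by summit. The lost share was 30.6% at the stricter q. TEAD shares of gained and kept peaks were 21.4% and 55.8% at the stricter q, 17.9% and 47.0% at equal length, 22.1% and 50.5% above the floor and 10.05% and 35.9% by summit, and the shares of lost peaks were 19.6%, 15.05% and 9.75% at the stricter q, above the floor and by summit. Myc shares of gained and kept peaks were 7.55% and 43.3% at the stricter q, 5.79% and 34.2% at equal length, 7.65% and 37.4% above the floor and 2.92% and 27.5% by summit, and of lost peaks 6.93%, 4.36% and 2.53% at the stricter q, above the floor and by summit. Kept peaks had the higher share of promoter-like, TEAD and Myc positions in each of these.

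YAP shares of gained and kept peaks were 0.924% and 1.81% at the stricter q, 0.810% and 1.53% at equal length, 1.11% and 1.67% above the floor and 0.105% and 0.167% by summit, and of lost peaks 0.351% at the stricter q and 0.0360% by summit. In the highest 5000, 10000 and 20000 peaks they were 4.75%, 3.59% and 1.93% of gained, 3.31%, 2.57% and 2.08% of kept, and 1.58%, 0.553% and 0.322% of lost peaks. The gained share was above the kept one in the 5000 and 10000 highest, with overlapping intervals.

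The median log2 ratio of matched pairs of −0.13 turned to 0.72 with pileup as deposited, which carries the difference in depth, and to 0.0144 with pileup per M tags and per bp of fragment size. With pairs of at least the median wild-type pileup it was −0.10. Over all results, 71 alternative values moved, 2 changed sign and 10 stayed close to the value reported. No paired analysis was possible because each genotype had 1 library, and for the same reason leaving out a replicate could not be done. Depth limits what can be said of weak peaks: no wild-type peak under 0.717 per M was listed, so gained peaks below that value carry no statement about wild-type.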
